A study of Drosophila melanogaster with 9 samples.

Results

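The 10 genes bon, yki, sd, Tgi, hpo, sav, wts, mats, jub and Rassf were selected by their exact names from the 17558 genes counted in developing Drosophila melanogaster eyes, and every one of them was found and passed the filter on low counts that left 11068 genes for testing. They encode the transcriptional cofactor Bonus (Bon), the Hippo pathway coactivator Yorkie (Yki), its DNA-binding partner Scalloped (Sd), and the core machinery that controls Yki. Eyes were taken from pupae kept at 25 °C, 40 to 41 hours after puparium formation, and each library was made from 60 pooled eyes. The 3 mCherry control libraries carried UAS-mCherry (BDSC 35787) over pGMR-GAL4. The 3 Bon libraries carried 1 copy each of UAS-bon-mCherry and pGMR-GAL4. The 3 Bon+yki-RNAi libraries carried UAS-bon-mCherry with pGMR-GAL4 over UAS-yki-RNAi (BDSC 34067). All 9 libraries therefore shared the GMR driver, which is active in differentiating eye cells and not in every cell of the dissected tissue. No group carried the RNAi construct without the Bon transgene, so that an interaction between the transgenes could not be tested.

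In the Hippo pathway, the kinase Hpo and its scaffold Sav activate the kinase Wts and its cofactor Mats, and Wts in turn phosphorylates Yki and keeps it out of the nucleus. Nuclear Yki activates growth genes together with Sd, while Tgi binds Sd and Yki and holds the same genes down. Jub restrains Wts at cell junctions, and Rassf restrains Hpo. In the fly eye the pathway limits cell number, removes surplus lattice cells and takes part in the choice of photoreceptor subtype. Bon belongs to the TIF1 family of chromatin-associated cofactors. The series asks which transcripts follow Bon and Yki when eye cells take on epidermal features.

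The gene models lay apart on the chromosome arms X, 2R, 3L and 3R, given here as in the deposited tables in BDGP6. The manipulated genes were bon (FBgn0023097, 3R, 20593139 to 20612540, 10 exon blocks) and yki (FBgn0034970, 2R, 24065975 to 24068485, 5 exon blocks). The DNA-binding and corepressor genes were sd (FBgn0003345, X, 15804370 to 15827682, 17 exon blocks) and Tgi (FBgn0036373, 3L, 13486797 to 13502492, 5 exon blocks). Of the kinase core, hpo lay on 2R (FBgn0261456, 19493996 to 19496856), and sav (FBgn0053193, 23058609 to 23061304), wts (FBgn0011739, 30789625 to 30806619) and mats (FBgn0038965, 22421161 to 22423302) lay on 3R. The restraining genes were jub (FBgn0030530, X, 13826041 to 13830317) and Rassf (FBgn0039055, 3R, 23114014 to 23117931). Exons of 3 members overlapped those of another gene. CG15923 covered 22.2% of the exon bases of bon on the opposite strand, Rep covered 4.64% of those of hpo on the opposite strand, and CG17119 covered 3.27% of those of sav on the same strand. The other 7 had no such overlap.

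Library totals ranged from 34926438 to 48524961 counts. Levels are given as CPM, a gene's counts relative to the library total (the usual counts-per-million unit), with that total scaled by TMM factors, which correct for differences in library composition. Log CPM values of libraries of 1 genotype correlated across genes at 0.9950 or more, and no pair of them agreed within counting noise. The eye genes gl, so, eya, elav, chp, sv, ct, B-H1, lz and ro, which mark retinal cells, were all detected in every group. Their summed level was 2780 to 2810 CPM in mCherry, 1990 to 2060 CPM in Bon and 2010 to 2030 CPM in Bon+yki-RNAi, and 6 of the 10 fell and 3 rose in Bon against mCherry, where 27.2% of all tested genes fell and 25.2% rose. Among genes listed as markers of other cells, 8 glial genes summed to 1790 to 1810, 1560 to 1620 and 1590 to 1640 CPM in the same order. Of these 1 rose in Bon against mCherry, Gli, from 314 ± 2.82 to 469 ± 9.9 CPM. The 4 that fell included wrapper, from 286 ± 6.49 to 117 ± 2.23 CPM. The 7 brain neuron genes bsh, toy, ey, dac, hbn, ap and Lim1 summed to 340 to 391, 416 to 433 and 498 to 503 CPM. Of that sum toy, ey and dac held 113 ± 3.6, 64.4 ± 2.71 and 126 ± 10.6 CPM in mCherry. They are not particular to brain neurons, so that the sum does not measure that cell type alone. The 6 hemocyte genes summed to 756 to 776, 676 to 720 and 717 to 759 CPM, with He at 0 counts in every library. Most of that sum was Col4a1 and Pxn, with 71033 and 19179 counts in the mCherry libraries against 509 for srp, the next. In Bon+yki-RNAi against mCherry Hml, NimC1 and srp fell and 0 rose, where 29.4% of all tested genes fell and 25.1% rose. The genes that fell stood at low levels, with srp going from 4.24 ± 0.503 to 2.13 ± 0.117 CPM. The 7 muscle genes summed to 958 to 1090, 505 to 575 and 610 to 643 CPM, and sls held 122118 counts in the mCherry libraries against 938 for bt, the next. The sum is therefore mainly that of sls, which went from 1030 ± 72.4 CPM in mCherry to 535 ± 36.5 CPM in Bon. Mhc stood at 1.45 ± 1.93 and 1.57 ± 1 CPM. Of the 7 genes 2 fell, 0 rose and 5 did not pass in Bon against mCherry, beside 27.2% and 25.2% of all tested genes that fell and rose. The 6 fat body genes summed to 11.8 to 13.5, 7.38 to 13.2 and 8.48 to 14.7 CPM. The part of these shifts in the results below was not tested, and in dissected eyes fewer cells of a type and less RNA per cell cannot be told apart.

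In control eyes all 10 genes were well expressed. Levels of different genes are given per length, as CPM per kilobase of exon, and levels of 1 gene between groups as CPM. The most abundant was mats, at 59.6 ± 1.3 CPM per kilobase (SD, n = 3), which exceeded 87.8% of the tested protein-coding genes. Next came yki at 40.1 ± 0.953 and Tgi at 33.6 ± 1.14 CPM per kilobase. The levels of wts (30 ± 0.367) and bon (29.9 ± 0.503) overlapped between libraries and had no order. Below them stood Rassf at 28.2 ± 0.212, hpo at 25.9 ± 0.758 and sd at 24.4 ± 0.601 CPM per kilobase. The lowest pair, jub (17 ± 0.962) and sav (16.6 ± 0.662), again overlapped, and sav still exceeded 58.4% of the tested protein-coding genes. The 10 genes thus spanned a narrow range before manipulation, with the Wts cofactor at the top.

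**Figure D1:**
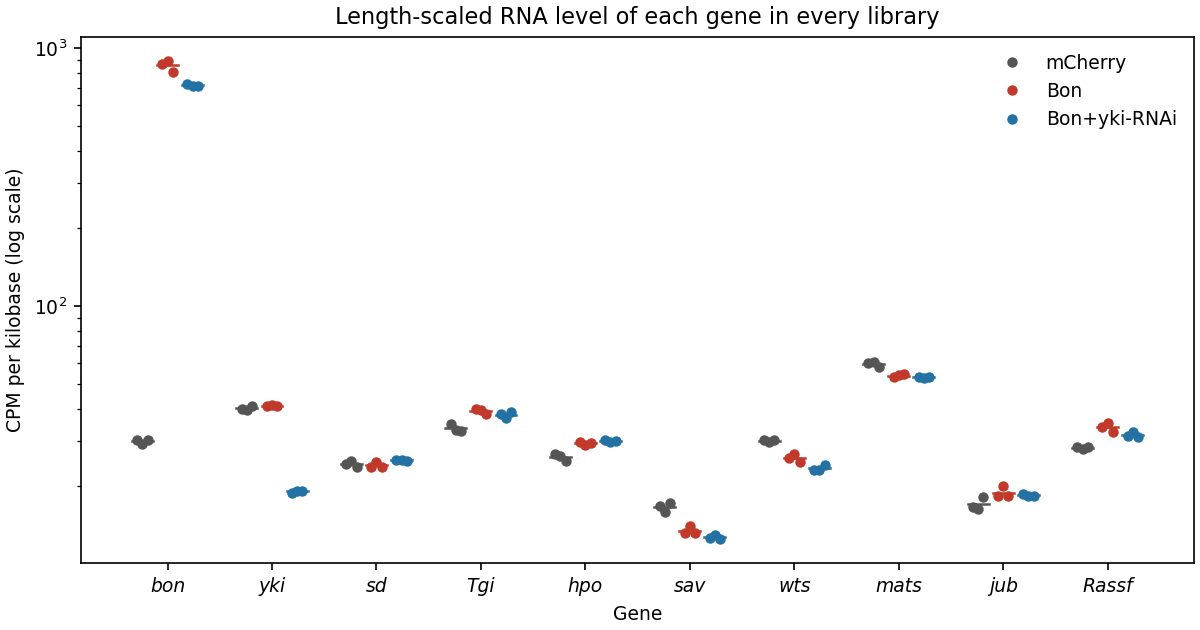
RNA level of each of the 10 genes in CPM per kilobase of exon (logarithmic axis) for the 9 libraries, coloured by genotype, with 1 point per library and a line at the mean of 3. Only bon, with means of 29.9 CPM per kilobase in mCherry, 858 in Bon and 717 in Bon+yki-RNAi, and yki, with means of 40.1, 41 and 19.1, moved by more than 1.5-fold.

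The order of levels changed with genotype at bon, yki and wts. In Bon eyes bon stood first at 858 ± 44.4 CPM per kilobase, followed by mats at 53.8 ± 0.836, yki at 41 ± 0.205 and Tgi at 39.2 ± 0.901. Rassf (33.9 ± 1.24) and hpo (29.4 ± 0.423) now lay above wts (25.7 ± 0.902), whose libraries overlapped those of sd (24.2 ± 0.647). With yki knocked down as well, yki dropped to the place after wts, at 19.1 ± 0.169 CPM per kilobase, and sav remained lowest at 12.7 ± 0.293. The length used for bon is that of its whole gene model. The labels do not say which part of it the transgene carries, so that its level per length is approximate in the groups with the transgene.

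Bon overexpression was compared with mCherry first, to ask whether its cofactor activity was accompanied by changes in the pathway that controls Yki. The bon transcript itself rose 28.7-fold. Of the other 9 genes, Rassf, Tgi, hpo and jub rose and sav, wts and mats fell, with log2 fold changes of 0.15 to 0.30 in size, while yki and sd did not pass the test. In all 8 of 10 members were past an adjusted p of 0.05 (edgeR quasi-likelihood test, Benjamini-Hochberg over all tested genes). Changes were common in this comparison, since 52.4% of the tested genes passed, 25.2% upward and 27.2% downward. Rises made up 48.1% of these calls, 62.6% with upper-quartile factors and 59.2% with total counts. The Bon and mCherry libraries did not overlap for the same 8 members, 5 higher and 3 lower, and for 58.6% of the tested genes, 28.7% higher and 29.9% lower. The median absolute log2 fold change was 0.20 for the 10 members and 0.18 for all tested genes. With a second rule that also asked for a change of at least 1.5-fold, which 16.4% of all tested genes met, bon alone of the members was left.

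The bon gene had 175, 170 and 176 CPM in the 3 mCherry libraries, 5060, 5190 and 4700 CPM in the Bon libraries and 4220, 4150 and 4130 CPM in the Bon+yki-RNAi libraries. The 3 groups did not overlap, and within Bon eyes replicate 3 was the lowest. Its share of all counts went from between 0.0164 and 0.017% in mCherry to between 0.473 and 0.514% in Bon. The log2 fold change against mCherry was 4.84 ± 0.04 (SE; adjusted p = 2.38e-18), with a 95% interval of 27 to 30.5-fold. The deposited counts do not separate the native gene from the transgene. CG15923, which shares 1290 exon bases with bon on the other strand, did not rise with it, with 23.2 ± 0.723 CPM in mCherry and 20.9 ± 0.29 CPM in Bon (log2 fold change -0.15 ± 0.04, adjusted p = 0.0053). The gene gl, whose product Glass binds the GMR promoter sites that drive GAL4, stood at 421 ± 6.8 CPM in mCherry and 454 ± 24.6 CPM in Bon (0.11 ± 0.03, adjusted p = 0.0158).

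The Yki coactivator and its DNA-binding partner kept close to their control levels in Bon eyes. The libraries held 60.5, 60 and 62.8 CPM of yki in mCherry and 62.3, 62.9 and 62.5 CPM in Bon, and the groups overlapped. The 95% interval of the difference ran from -0.03 to 0.10 on the log2 scale, so that a change of yki beyond 1.07-fold lay outside it. This call depended on scaling, since yki passed the test at 0.10 with upper-quartile factors (adjusted p = 0.00783) and at 0.09 with total counts (adjusted p = 0.0235). For sd the values were 213, 219 and 209 CPM in mCherry and 208, 218 and 209 CPM in Bon, again with overlap. Its log2 fold change was -0.01 ± 0.03 (adjusted p = 0.722, 95% interval -0.07 to 0.05). The corepressor gene Tgi differed from both, with 84.7, 80.1 and 79.7 CPM in mCherry against 96.7, 95.7 and 92.5 CPM in Bon. No Bon library reached down to the control range, and Tgi rose by 0.22 ± 0.03 on the log2 scale (adjusted p = 5.15e-05).

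Within the kinase core the upstream kinase gene and its partners moved in opposite directions in Bon eyes. The hpo gene, for the kinase at the head of the cascade, had 74.5, 73.4 and 70.4 CPM in mCherry and 83.5, 81.1 and 82.5 CPM in Bon. All Bon libraries lay above all controls, and hpo rose by 0.18 ± 0.03 on the log2 scale (adjusted p = 0.000107). The scaffold gene sav had 37.3, 35.6 and 38.5 CPM in mCherry and 29.5, 31.2 and 29.5 CPM in Bon, without overlap, and fell by 0.30 ± 0.04 on the log2 scale (adjusted p = 1.83e-05). The kinase gene wts went from 176, 172 and 175 CPM to 149, 154 and 144 CPM (-0.22 ± 0.03, adjusted p = 1.75e-05). Its cofactor gene mats went from 103, 104 and 99.8 CPM to 90.8, 92.4 and 93.6 CPM (-0.15 ± 0.03, adjusted p = 0.000278). Neither gene overlapped between the groups. Values of the genes that share exon bases stood beside these. Rep, opposite hpo, fell from 28.3 ± 0.464 to 25.4 ± 0.597 CPM while hpo rose. CG17119, which shares 73 bases with sav on the same strand, had 21.7 ± 0.17 CPM in mCherry and 5.55 ± 0.662 CPM in Bon and fell by 1.96 ± 0.07 on the log2 scale (adjusted p = 1.64e-11), and its part in the lower sav count was not tested.

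Both genes for restraints on the core rose in Bon eyes. Rassf, which competes with Sav for Hpo, had 98.3, 97.2 and 98.6 CPM in mCherry and 118, 122 and 113 CPM in Bon. The groups were well apart and Rassf rose by 0.27 ± 0.03 on the log2 scale (adjusted p = 5.33e-06). The LIM-domain gene jub had 48.9, 47.9 and 53.2 CPM in mCherry and 53.9, 58.9 and 53.9 CPM in Bon. Here the highest control library almost reached the lowest Bon libraries, and the rise of 0.16 ± 0.04 had an adjusted p of 0.00839. The authors' deposited table set Bon beside mCherry as well. Its log2 fold changes were 0.27 for Rassf, 0.22 for Tgi, 0.18 for hpo, 0.16 for jub, -0.15 for mats, -0.22 for wts and -0.30 for sav, and its adjusted p for these 7 was at most 0.0248.

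**Figure D2:**
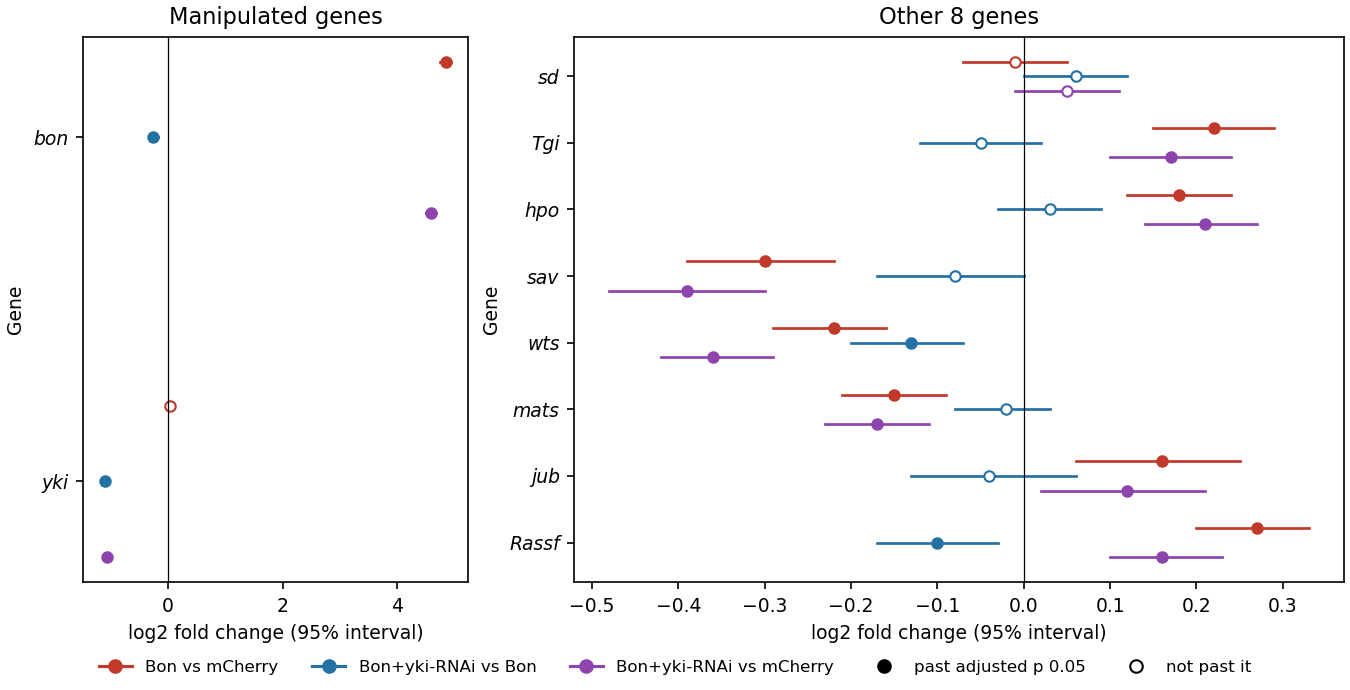
Log2 fold change with its 95% interval for the 10 genes in the 3 comparisons, the manipulated genes bon and yki on the left and the other 8 on the right on an expanded scale, with filled points for an adjusted p under 0.05. The 8 genes lie between -0.39 and 0.27, those that moved with Bon keep their side of 0 in Bon+yki-RNAi against mCherry, and most points of Bon+yki-RNAi against Bon are open and near 0.

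Adding the yki RNAi construct to Bon eyes was accompanied by less yki and by small differences in the pathway core. Of the 10 members 4 fell, namely yki, bon, wts and Rassf, and 0 rose (0 in DESeq2 too, and only sd had a higher value at an unadjusted p under 0.05), while 27.6% of all tested genes passed the threshold, 11.3% upward and 16.3% downward. The share of rises among the calls was 41%, against 52.3% with upper-quartile factors and 66.9% with total counts. The other 6 had adjusted p values of 0.112 or more in the edgeR quasi-likelihood test. Only yki was past 1.5-fold, a size that 6.17% of all tested genes reached. The median absolute log2 fold change was 0.07 for the members and 0.10 for all tested genes. The libraries did not overlap for 6 members, of which sd and hpo were higher, as were 19.6% of the tested genes, and bon, yki, sav and wts lower, as were 24.8%. This comparison shares its Bon libraries with the previous one.

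The knockdown left 28.9, 29.3 and 29.3 CPM of yki in the 3 libraries, far below every other library. That was 46.7% of the level in Bon eyes, with a 95% interval of 44.6 to 48.9% (log2 fold change -1.10 ± 0.03, adjusted p = 8.29e-12). The value is an average over all cells of the dissected eyes, and what remained in the cells that express the driver was not measured. The bon transcript was lower as well, at 83.6% of its level in Bon eyes, with a 95% interval of 79.4 to 88% (-0.26 ± 0.03, adjusted p = 6.14e-05). In these libraries GAL4 served a pair of UAS constructs instead of 1. The driver's regulator gl stood at 429 ± 6.57 CPM (-0.08 ± 0.03 against Bon, adjusted p = 0.0948). The difference in bon between the groups with the transgene therefore goes along with that in yki, and the results below for Bon+yki-RNAi against Bon come with less bon transcript; its part in them was not tested.

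Among the remaining genes wts fell a second step, to 135, 134 and 140 CPM, below all Bon libraries (-0.13 ± 0.03, adjusted p = 0.00464). It missed the threshold with total-count scaling (-0.07, adjusted p = 0.0554). Rassf went to 109, 113 and 108 CPM, with its highest library level with the lowest Bon library (-0.10 ± 0.03, adjusted p = 0.0273). The call for Rassf did not hold without Bon replicate 1 (adjusted p = 0.074) or 2 (adjusted p = 0.11), without Bon+yki-RNAi replicate 1 (adjusted p = 0.0949) or 3 (adjusted p = 0.123), with upper-quartile factors (adjusted p = 0.0762), with total counts (adjusted p = 0.318) or in DESeq2 (adjusted p = 0.0648), while its direction was the same in all 17 alternatives. In the authors' deposited table wts had -0.12 (adjusted p = 0.00883) and Rassf -0.09 (adjusted p = 0.101).

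The other 6 genes stayed near their levels in Bon eyes. The 95% intervals of the log2 fold change were -0.03 to 0.09 for hpo, -0.08 to 0.03 for mats, -0.12 to 0.02 for Tgi, -0.13 to 0.06 for jub and -0.17 to 0.00 for sav, so that for these 5 a change beyond 0.17 in either direction lay outside. The sd gene had 222, 222 and 220 CPM, above the 3 Bon libraries, with an interval of 0.00 to 0.12 (adjusted p = 0.112). It passed the test with upper-quartile factors (0.09, adjusted p = 0.0263), with total counts (0.12, adjusted p = 0.00277) and when the mCherry libraries were left out of the fit (0.07, adjusted p = 0.0364). For sav the CPM values were 28.1, 29.1 and 27.9, and for hpo they were 84.5, 83.6 and 83.8. Both lay farther from the control values than the Bon libraries did, and hpo passed the test with total counts (0.09, adjusted p = 0.0293).

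Set against mCherry, Bon+yki-RNAi eyes had more bon, hpo, Tgi, Rassf and jub transcript and less yki, sav, wts and mats. These 5 rises and 4 falls stood in a comparison with 54.5% of the tested genes past the threshold, of which 46% rose (63.8% with upper-quartile factors, 66.4% with total counts). All 10 members had groups that did not overlap, 6 of them higher and 4 lower, against 61.8% of the tested genes, 29.2% higher and 32.6% lower. Only bon (24-fold, 95% interval 22.6 to 25.5) and yki (47.8% of control, 45.7 to 50.1%) changed by at least 1.5-fold, as did 15.9% of all tested genes. The falls were -0.39 ± 0.04 for sav (adjusted p = 1.57e-06), -0.36 ± 0.03 for wts (adjusted p = 1.38e-07) and -0.17 ± 0.03 for mats (adjusted p = 7.37e-05). The rises were 0.21 ± 0.03 for hpo (adjusted p = 2.57e-05), 0.17 ± 0.03 for Tgi (adjusted p = 0.000442), 0.16 ± 0.03 for Rassf (adjusted p = 0.000462) and 0.12 ± 0.04 for jub (adjusted p = 0.0361). The call for jub was lost without mCherry replicate 1 (adjusted p = 0.0888) or 2 (adjusted p = 0.119) and without Bon+yki-RNAi replicate 1 (adjusted p = 0.0955), 2 (adjusted p = 0.0807) or 3 (adjusted p = 0.0694), and that for mats with total counts (-0.06, adjusted p = 0.0524). For sd the test was missed at 0.05 ± 0.03 (adjusted p = 0.148), and passed at 0.14 with upper-quartile factors (adjusted p = 0.000411), at 0.16 with total counts (adjusted p = 0.000112) and at 0.07 without mCherry replicate 2 (adjusted p = 0.0325). The comparison shares its libraries with the other 2, and no table of the authors was used for it.

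Ratios between genes of 1 library do not depend on how libraries are scaled. The level of bon per length was 0.746 ± 0.0112 times that of yki in mCherry eyes, 20.9 ± 1.03 times in Bon eyes and 37.5 ± 0.757 times in Bon+yki-RNAi eyes. The ratio of wts, the kinase that acts on Yki, to yki was 0.762, 0.752 and 0.734 in the mCherry libraries, 0.628, 0.645 and 0.606 in the Bon libraries and 1.22, 1.2 and 1.25 in the Bon+yki-RNAi libraries. It was thus lowest with Bon alone and highest with the knockdown, where the transcript of the kinase exceeded that of its substrate. The ratio of the corepressor gene Tgi to sd was 1.38 ± 0.0594, 1.62 ± 0.051 and 1.5 ± 0.0483 in the same order of groups, and no 2 groups overlapped. Each of these differences had an exact two-sided permutation p of 0.10, the smallest that 3 against 3 libraries allow. The bon to yki ratio, and the wts to yki ratio with the knockdown, hold a manipulated gene. For these the design itself set the groups apart, and the p adds no support. A further ratio, of hpo to wts, was added after the values were seen and carries no test. It was 0.878, 0.884 and 0.831 in mCherry, 1.16, 1.09 and 1.19 in Bon and 1.3, 1.29 and 1.24 in Bon+yki-RNAi, so that the order of the 2 kinase transcripts was exchanged in both groups with the Bon transgene.

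**Figure D3:**
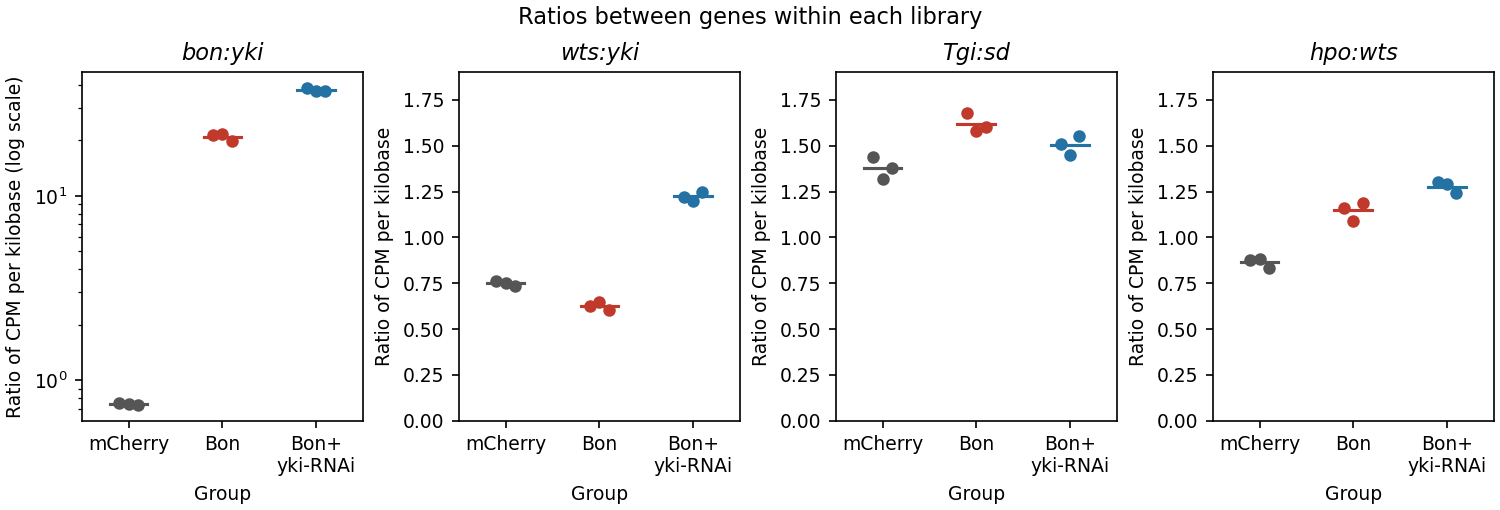
Ratio of the length-scaled levels of bon to yki (logarithmic axis), wts to yki, Tgi to sd and hpo to wts in each of the 9 libraries by genotype, with a line at the mean of 3. The wts to yki ratio is 0.626 in Bon and 1.23 in Bon+yki-RNAi, and hpo to wts passes from 0.864 in mCherry to 1.14 in Bon.

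The wider pathway was read from 7 lists with 79 different genes, 77 of them tested. In Bon against mCherry 30 rose and 24 fell, which is 70.1% beside the 52.4% of all tested genes, and 10 of them (13%, beside 16.4%) changed by at least 1.5-fold. In Bon+yki-RNAi against Bon 8 rose and 18 fell, 33.8% beside 27.6% (11.3% upward and 16.3% downward), and 4 of them (5.19%, beside 6.17%) changed by at least 1.5-fold. Their median log2 fold changes were 0.03 and -0.01, and those of all tested genes were 0 and -0.01. Most of these changes were small, and with upper-quartile scaling several falls of 0.15 or less were lost, so that both splits are given below.

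Upstream of the core, the apical and junctional regulators moved both ways with Bon. With the added knockdown those past the threshold were lower. Of 16 genes 6 rose and 5 fell in Bon (8 and 3 with upper-quartile factors), and 0 rose and 7 fell in Bon+yki-RNAi against Bon (1 and 7 with upper-quartile factors, 2 and 5 with total counts). The expanded gene ex, whose product binds and restrains Yki at the membrane, went from 58.5 ± 4.02 CPM in mCherry to 88.4 ± 6.2 CPM in Bon (0.60 ± 0.05, adjusted p = 1.47e-06) and to 41.4 ± 0.255 CPM with the knockdown (-1.10 ± 0.06 against Bon, adjusted p = 3.95e-08). Its partner gene kibra followed the same course, from 149 ± 3.02 to 195 ± 3.73 and 142 ± 3.3 CPM. The polarity gene scrib fell with Bon (-0.34 ± 0.03, adjusted p = 4.17e-07) and had -0.06 ± 0.03 with the knockdown (adjusted p = 0.193).

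In the Fat and Dachsous branch, a cadherin pair that signals to Wts through the myosin Dachs, 4 of 10 genes rose and 4 fell with Bon, also with upper-quartile factors. In Bon+yki-RNAi against Bon 1 rose and 6 fell (2 and 6 with upper-quartile factors, 3 and 6 with total counts). The cadherin gene ft rose with Bon from 334 ± 16 to 395 ± 15.1 CPM (0.24 ± 0.04, adjusted p = 0.000129) and fell to 255 ± 8.87 CPM with the knockdown (-0.63 ± 0.04 against Bon, adjusted p = 4.96e-08). Its partner gene ds rose with Bon by 0.60 ± 0.04 on the log2 scale (adjusted p = 1.24e-08) and fell with the knockdown (-0.37 ± 0.04, adjusted p = 7.83e-06), as did the myosin gene d (0.36 ± 0.04, adjusted p = 4.29e-06, and -0.36 ± 0.04, adjusted p = 1.36e-05). Fbxl7, for an F-box protein that acts between Ft and Dachs, fell at both steps, from 165 ± 4.54 to 93.8 ± 6.61 and 69.1 ± 0.702 CPM. Among kinase-level regulators, 3 of 9 rose and 3 fell with Bon (6 and 2 with upper-quartile factors), and 1 rose and 0 fell with the knockdown (2 and 0 with upper-quartile factors, 4 and 0 with total counts). Sik2 and Sik3, for kinases that act on Sav, fell with Bon (-0.22 ± 0.03, adjusted p = 7.1e-06, and -0.32 ± 0.04, adjusted p = 3.88e-05), and Schip1, for a protein that links Ex to the kinase Tao, rose with Bon (0.27 ± 0.03, adjusted p = 1.11e-05) and again with the knockdown (0.13 ± 0.03, adjusted p = 0.00818).

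Genes of the STRIPAK complex, a phosphatase assembly that acts on Hpo and is bound by Rassf, differed little. Of 7 genes 2 rose with Bon, Strip by 0.11 ± 0.03 (adjusted p = 0.00339) and mts, the catalytic subunit gene, by 0.08 ± 0.03 (adjusted p = 0.0307), and 3 rose with upper-quartile factors. In Bon+yki-RNAi against Bon 0 passed the edgeR test and 0 passed in DESeq2, with Pp2A-29B alone below an unadjusted 0.05, and 1 rose with total counts. Of 13 tested nuclear partners of Yki and Sd 7 rose and 2 fell with Bon (10 and 0 with upper-quartile factors). With the knockdown 0 of 13 passed in edgeR, where tsh, Mad and Wbp2 were below an unadjusted 0.05. In that comparison 1 fell in DESeq2 and 1 rose with total counts. The zinc finger gene tsh had the largest change of this list, from 46.1 ± 1.02 to 108 ± 15.4 CPM with Bon (1.23 ± 0.10, adjusted p = 1.42e-05), and stood at 88.2 ± 4.05 CPM with the knockdown (adjusted p = 0.0508 against Bon). Mad, the BMP effector that binds Yki, rose with Bon by 0.21 ± 0.03 (adjusted p = 4.25e-05). The Sd partner gene vg was near 0 in every group, at 0.0952 to 0.14 CPM, and was not tested.

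Among the genes that Yki itself is known to activate, 6 of 15 tested canonical Yki targets rose and 6 fell with Bon (8 and 4 with upper-quartile factors), while 4 rose and 9 fell in Bon+yki-RNAi against Bon (5 and 8 with upper-quartile factors, 5 and 7 with total counts). The falls with the knockdown included ex, kibra, Mer and crb, which also belong to the upstream list, and fj of the Fat and Dachsous list. Each of these is counted in both lists, so that the splits of the lists are not separate. The apoptosis inhibitor gene Diap1 (-0.22 ± 0.02, adjusted p = 1.08e-05) and the cyclin gene CycE (-0.33 ± 0.06, adjusted p = 0.000715) fell as well. The EGFR ligand gene vn took the opposite course, from 45 ± 2.93 CPM in mCherry to 12.6 ± 1.21 CPM in Bon and 20.7 ± 0.524 CPM with the knockdown (0.71 ± 0.07 against Bon, adjusted p = 3.35e-06). The glypican gene dlp was lower with Bon by more than any other gene of the lists but vn, from 474 ± 15.6 to 170 ± 3.47 CPM (-1.48 ± 0.03, adjusted p = 1.6e-14), and had 159 ± 1.88 CPM with the knockdown. The ligand gene wg rose at both steps, from 54.6 ± 1.72 to 84.6 ± 5.7 and 111 ± 2.71 CPM. The JAK/STAT ligand genes upd1 and upd2 rose with Bon from 0.243 ± 0.177 to 1.06 ± 0.367 CPM (adjusted p = 0.0013) and from 0.08 ± 0.0773 to 1.12 ± 0.287 CPM (adjusted p = 4.1e-06), at levels of few counts. Mer, crb, Diap1, CycE, vg, upd1 and upd2 were chosen after their values were seen.

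For genes of known Bon partners, nuclear receptors and the SUMO and chromatin factors of its silencing complexes, 4 of 12 rose and 5 fell with Bon (6 and 3 with upper-quartile factors) and 2 rose and 1 fell with the knockdown (3 and 0 with upper-quartile factors, 5 and 0 with total counts). The gene that fell, lwr, for the SUMO-conjugating enzyme, also missed the threshold with RLE factors and in DESeq2. The ecdysone receptor gene EcR fell with Bon from 423 ± 9.71 to 374 ± 6.66 CPM (-0.18 ± 0.03, adjusted p = 4.81e-05) and stood at 418 ± 5.58 CPM with the knockdown (0.16 ± 0.03 against Bon, adjusted p = 0.000386). The nuclear receptor gene ftz-f1, at low level, fell from 4.93 ± 0.377 to 1.92 ± 0.206 CPM with Bon (-1.37 ± 0.11, adjusted p = 8.74e-08). The SUMO ligase gene Su(var)2-10 rose by 0.19 ± 0.03 (adjusted p = 2.41e-05), and wde, for a cofactor of the histone methyltransferase Eggless, rose by 0.19 ± 0.03 (adjusted p = 0.000238).

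**Figure D4:**
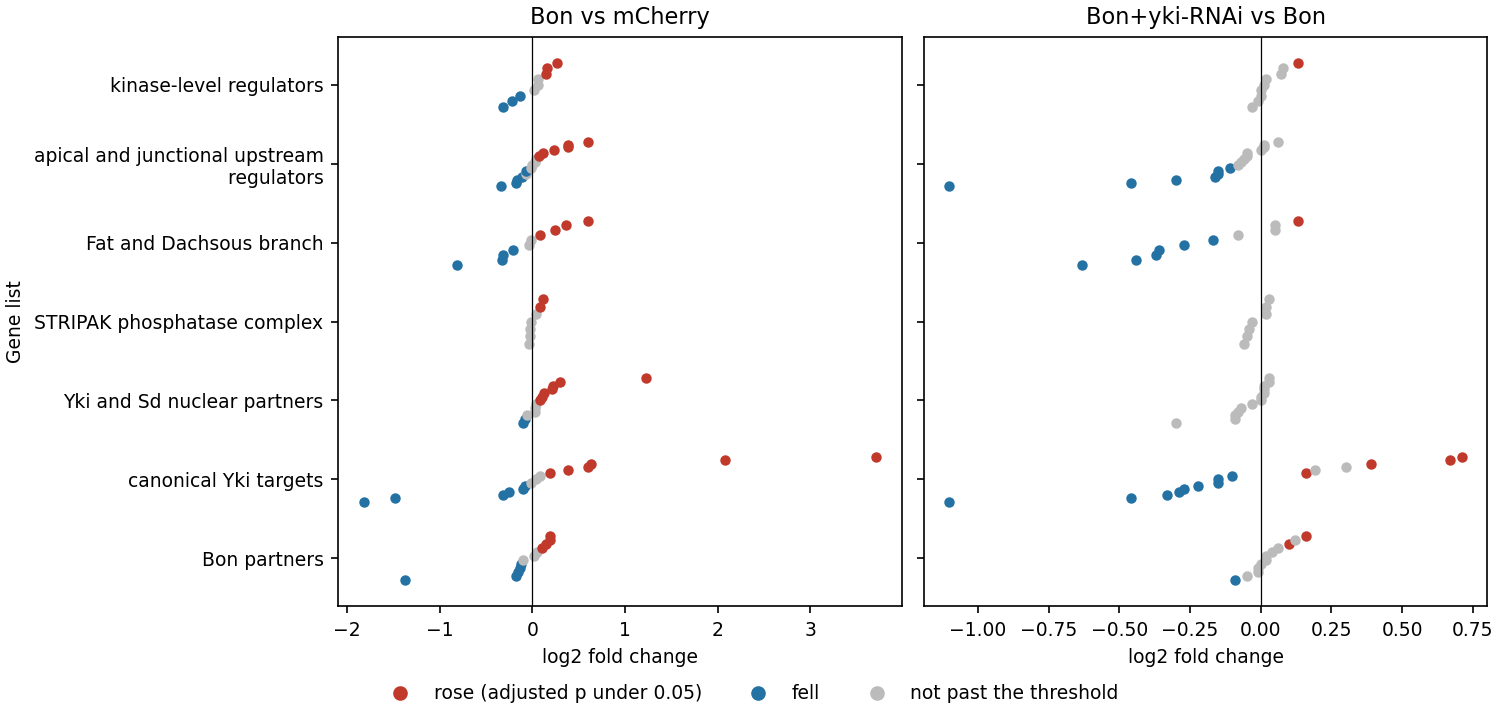
Log2 fold change of every tested gene of the 7 pathway lists, 1 point per gene, in Bon against mCherry (left) and Bon+yki-RNAi against Bon (right), with red for genes that rose, blue for genes that fell and grey for the rest, on axes of different range. With the knockdown the points past the threshold lie mostly left of 0 in the apical, Fat and target lists, and the STRIPAK and nuclear partner lists hold grey points only. Some genes stand in more than 1 list.

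Some genes outside the pathway had profiles very like those of the members across the 9 libraries. Among 7907 tested genes with a mean of at least 5 CPM, the profile of bon was matched most closely by phr, CycA and Slob, each with a Pearson r of 0.999 on log2 CPM. These went from 13.1 to 30.1 and 28.4 CPM, from 21.9 to 47.1 and 44.1 CPM, and from 80 to 156 and 150 CPM over the 3 groups. For yki the closest were D1 (r = 0.997, from 310 and 345 to 112 CPM), ImpE1 (r = 0.996, from 951 and 942 to 501 CPM) and CG1161 (r = 0.996, from 101 and 101 to 84.8 CPM). For sd they included CG4407 (r = 0.980) and Nmnat (r = 0.965), which like sd spanned little range. Because the libraries fall into 3 genotypes, these values mostly describe the steps between groups. They are given as a description, with no test.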

How the data were processed

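The authors deposited 1 table of estimated counts per gene for each of 9 libraries, with gene positions and length, per the file headers. Between 39.7 and 42.8% of values had a decimal part, so values were rounded before testing. The submitters' processing notes name BDGP6, STAR 2.7.0e, Bowtie2 2.3.5.1, cutadapt 2.9, DESeq2 1.30.1 and featureCounts of Subread 1.6.2. Their options and the use of strand in counting are not given in the sources used. The authors also deposited, for each of 2 comparisons, a table with a p-value, an adjusted p-value and its −log10, the log2 fold change and its linear ratio, and for every library a signal, namely counts divided by its size factor. Only the log2 fold change and adjusted p-value are quoted, as the authors'.

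In R 4.3.3, edgeR 4.0.16 was run after its filterByExpr with a minimum count of 10. TMM factors were 0.961 to 1.04. CPM uses these sizes, and CPM per kilobase divides it by the exon length in the tables. The latter was used in place of TPM, since both give the same ratios within a library. The quasi-likelihood test of edgeR (robust, group as the only term, all 9 libraries) gave two-sided p-values, adjusted by Benjamini-Hochberg over 11068 genes. Log2 fold changes carry ± SE and levels ± SD (n = 3). The series names the libraries of a group biological replicates. The test was also run on counts simulated from the levels and spread fitted to these data. Such a run checks the code and not how the test behaves on real libraries. At these depths 3 counts are 0.0618 to 0.0859 CPM, for counting error only. Alternatives were other scaling factors, DESeq2 1.42.0, no filter, a fit without the robust option, the 2 groups alone, a replicate block and leaving out each library. The members and lists were chosen with earlier results of these data known. Named genes were the members, gl, up to 3 genes per list and comparison by smallest p, and for bon, yki and sd the 3 genes with the highest r. A gene that this rule names is not reported here.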

Additional observations from a re-analysis of the deposited data

How the results depend on the processing

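The calls of bon, sav, wts, Tgi, hpo and Rassf in Bon against mCherry and in Bon+yki-RNAi against mCherry, and of bon and yki in Bon+yki-RNAi against Bon, kept direction and side of the threshold in all 17 alternatives. The members' calls that were lost with other scalings or without 1 library stand beside their results. With total counts the median of all genes in Bon+yki-RNAi against mCherry moved by 0.11 on the log2 scale, and 4537 genes rose there (4252 with upper-quartile factors) against 2773. In Bon+yki-RNAi against Bon 2440 genes rose with total counts against 1251. There the members that rose numbered 2 with total counts (sd and hpo), 1 with upper-quartile factors and 1 in a fit of the 2 groups alone against 0, and those that fell 2 with total counts against 4. For yki in Bon against mCherry the values that passed were 0.10 (upper quartile) and 0.09 (total counts). Among the 10 members, directions turned only where the test was not passed. They were sd in Bon against mCherry (0.05 with upper-quartile factors, 0.04 with total counts, and -0.03 to 0.05 over all alternatives, with 0.01, 0.01 and 0.00 without mCherry replicate 2, Bon replicate 1 and Bon replicate 3) and, in Bon+yki-RNAi against Bon, mats (0.00 with upper-quartile factors, 0.04 with total counts), Tgi (0.01 with total counts) and jub (0.02 with total counts, 0.00 without Bon replicate 2, and -0.06 to 0.00 when leaving out 1 library each). The cause was not tested. Same-numbered libraries of different groups deviated together only weakly (r from -0.02 to 0.14, against -0.09 to 0.08 for different numbers). The numbers were not taken as pairs. The fit with the replicate block ended no call of a member and gave yki -1.10 and wts -0.13 in Bon+yki-RNAi against Bon. In that comparison 1534 genes rose and 1914 fell with the block, against 1251 and 1803.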
